A study of Rattus norvegicus with 2 samples.

Results

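Of the 12174 barcodes kept from the muscle of a rat-mouse chimera, 642 carried the RNA of skeletal muscle fibres together with RNA counted on the genes of both species, and these mixed fibre barcodes are described here. They were chosen on their own readout. A barcode, the tag that marks 1 droplet, entered with at least 500 unique molecular identifiers (UMIs, 1 per captured transcript), at least 200 genes seen and no more than 20% of UMIs from mitochondrial protein genes. At least 5% of its UMIs had to lie on 10 fibre genes, rat and mouse copies added: Acta1, Ckm, Mylpf, Tnnt3, Tnni2, Tnnc2, Myl1, Tcap, Pgam2 and Eno3. More than 20% but less than 80% of all its UMIs had to lie on mouse genes. The 5% level alone left 1811 fibre barcodes. Of these, 1122 had 20% or less of their UMIs on mouse genes and are called rat fibre barcodes, and 47 had 80% or more and are called mouse fibre barcodes. The 2 libraries of the series held 23416 barcodes in all, of which 21154 passed the same limits on UMIs, genes and mitochondrial share.

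The chimera grew from a Sprague-Dawley (SD) rat morula injected with mouse iPSCs (induced pluripotent stem cells). The iPSCs carried the Dmd mdx mutation, edited by CRISPR/Cas9 to restore the dystrophin reading frame, and the Pax7-nGFP reporter, which marks satellite cells; the line came from 1 edited clone. The other library came from an SD rat without injected cells. Skeletal muscle from the whole body was digested with collagenase and live cells were sorted, so that whole fibres are not what the droplets received, and the labels give neither age nor sex. The chimera was counted on 23373 rat genes, 25906 mouse genes and EGFP, and the SD rat on the rat genes alone, so that the SD rat library, with 2531 fibre barcodes, holds no mouse counts to compare. The chimera library held 118872850 UMIs and the SD rat library 70957559. Each group was 1 library from 1 animal. No difference below was therefore tested, and the 95% intervals given cover counting error only. Of 43 barcodes present in both libraries, 1 was a mixed fibre barcode, and it was no fibre barcode in the SD rat.

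Skeletal muscle fibres are syncytia, formed when myoblasts fuse, and they share a cytoplasm among many nuclei. A fibre built from myoblasts of 2 species can therefore hold transcripts of both. The sarcomere, the unit of contraction, is made of thin filaments of actin, tropomyosin and troponin, thick filaments of myosin, and the titin and Z-disc proteins that anchor them. Droplets can also hold RNA of more than 1 cell, and RNA freed from broken cells enters every droplet. Values for these are given beside the results, and their part in them was not tested unless a value is given that bears on it directly.

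Mixed barcodes made up 35.5% of the fibre barcodes (642 of 1811, 95% interval 33.2 to 37.7) and 11.5% of the other barcodes (1194 of 10363, 10.9 to 12.2). This contrast depended on the limits: at 10% and 90% the shares were 63.1% (60.8 to 65.3) and 63.0% (62.1 to 64.0). The mixed share was largest in shallow fibre barcodes. With 500 to 2000 UMIs, 248 of 310 fibre barcodes were mixed (80%, 75.1 to 84.3), against 230 of 697 other barcodes (33.0%, 29.5 to 36.6). With 10000 UMIs or more, 75 of 321 fibre barcodes were mixed (23.4%, 18.8 to 28.4), against 400 of 4284 other barcodes (9.34%, 8.48 to 10.2). In each of the 4 depth ranges examined, the fibre barcodes had the higher mixed share. The median mixed fibre barcode held 3240.5 UMIs (lowest 502, highest 67736) and 833.5 genes, and the median rat fibre barcode held 5985 UMIs and 1126 genes.

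**Figure D1:**
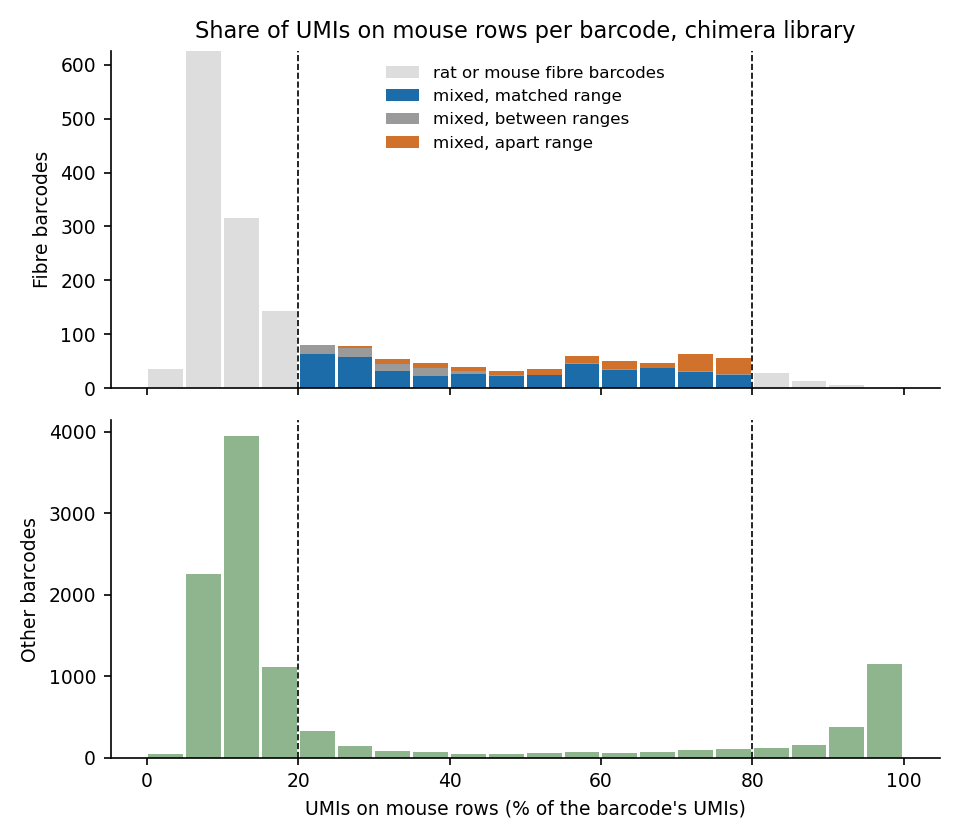
Number of chimera barcodes (vertical axes, linear) by the share of UMIs on mouse genes (horizontal axis, percent, bins of 5 points) for fibre barcodes above and other barcodes below, with dashed lines at the limits of 20% and 80%. Fibre barcodes spread over all bins between the limits with 31 to 81 per bin, while the other barcodes gather below 20% and above 90%.

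Between the limits the fibre barcodes formed no gap. Bins of 5 points held between 31 and 81 of them, as the plot of barcodes by mouse share shows, and the limits therefore divide a continuous range. The 81 members just inside the lower limit, with 25% or less of UMIs on mouse genes, had a median fibre gene level of 29.5% of UMIs, and 14.2% of their fibre gene UMIs lay on mouse copies in the median barcode. The 144 fibre barcodes just outside, above 15%, had medians of 30.7% and 8.99%. At the upper limit, the 56 members from 75% on had a median fibre gene level of 11.7% and a median fibre gene mouse share of 35.2%, and the 27 mouse fibre barcodes below 85% had 29.3% and 76.5%. The members below 6% of UMIs on fibre genes numbered 57, and 67 mixed barcodes lay between 4% and 5%.

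The rule read the species of a barcode from all of its genes, and the fibre genes were then examined alone. Over the 642 mixed fibre barcodes, 280587 of 841447 fibre gene UMIs lay on mouse copies (33.3%), and the median barcode had 24.5% (21.9 to 28.9; lowest 0, highest 95.6%). In rat fibre barcodes the pooled share was 2.95% and the median 1.27%, the base beside which the members are given. In the 1814 other mouse barcodes, which had too few fibre gene UMIs to count as fibres, the pooled share was 13.8%; how much of this was free RNA was not tested. The 47 mouse fibre barcodes had 72.2% pooled and 79.8% in the median. The pooled value of the members lay between these groups, while single members spread beyond both.

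Of the mixed fibre barcodes, 353 of 642 (55.0%, 51.0 to 58.9) also had a fibre gene mouse share between 20% and 80%, while 275 had 20% or less and 14 had 80% or more. The same count was 14 of 1122 in rat fibre barcodes (1.25%, 0.684 to 2.08). Since the fibre genes entered the rule, members were also chosen on the mouse share of all genes but these 10. That choice gave 692 barcodes, of which 336 (48.6%, 44.8 to 52.4) had a fibre gene share between the limits, with a median of 20.7% (18.2 to 23.3). The median of the 1036 barcodes then called rat was 1.21%. The 83 then called mouse had a median of 18.3% (11.4 to 66.4) and 58.5% pooled. The high level of the mouse fibre barcodes given above therefore depends on the fibre genes in the rule. A mixed fibre gene share was thus present in members chosen without these genes. The other muscle genes stayed in that mouse share, so the choice was not independent of fibre RNA.

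The members fell into 2 patterns when the fibre genes were set against the nuclear genes outside the muscle lists. The ranges were drawn after the data had been seen, and they are ranges and not cell types. In 417 barcodes (65.0%, 61.1 to 68.7) the mouse shares of both gene sets lay within 15 points of each other, and these are called the matched range. In 148 barcodes (23.1%, 19.9 to 26.5) the genes outside the muscle lists had a mouse share at least 30 points above that of the fibre genes, and these are called the apart range. The remaining 77 lay between. Within 5 points of the 15-point limit lay 120 barcodes, and within 5 points of the 30-point limit 29.

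**Figure D2:**
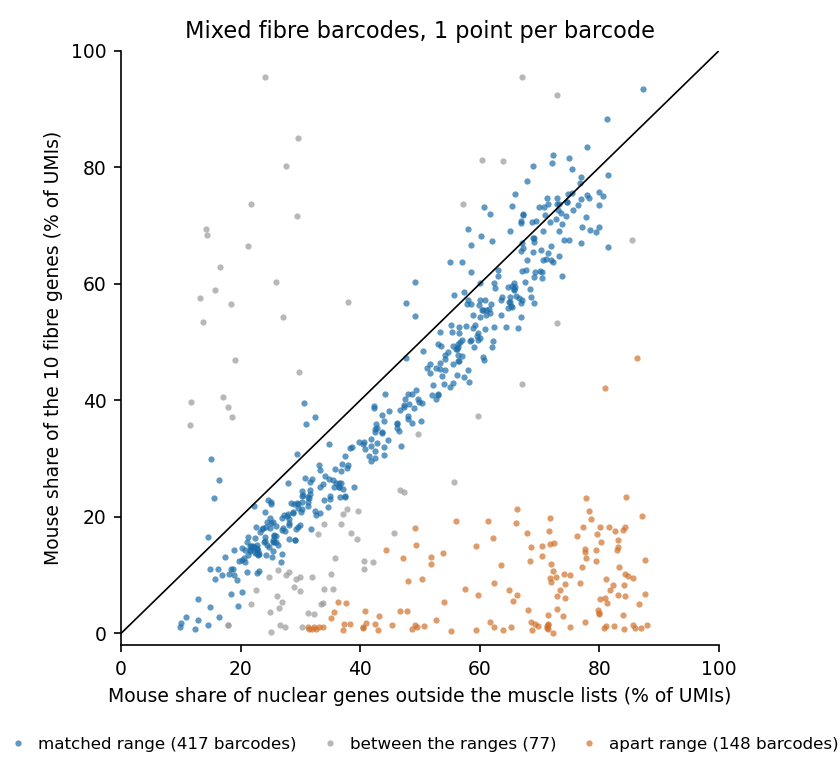
Mouse share of the 10 fibre genes (vertical axis, percent of UMIs) against the mouse share of nuclear genes outside the muscle lists (horizontal axis, percent of UMIs), 1 point per mixed fibre barcode, with a line of equality. The 417 barcodes of the matched range follow the line over its length and lie mostly below it, and the 148 of the apart range lie near the bottom, at a median fibre gene share of 6.67%.

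The matched range held barcodes rich in fibre RNA. Its median barcode had 3638 UMIs, 34.9% of them on the fibre genes, close to the 36.2% of rat fibre barcodes, and a fibre gene mouse share of 39.6% (lowest 0.750%, highest 93.4%). Its genes outside the muscle lists had a median mouse share of 48.2%. The fibre gene share was the lower of both in 363 of 417 barcodes (87.1%). More than 50% of all UMIs were mouse in 193 barcodes (46.3%, 41.4 to 51.2). Within the matched range, fibre genes and the other genes lie close by definition, so that their likeness is no finding.

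The apart range was poor in fibre RNA and went against the label of a fibre with both species. Its median barcode had 957.5 UMIs, 501.5 genes and 8.30% of UMIs on fibre genes, and 71.5% of the UMIs of genes outside the muscle lists were mouse. Its fibre gene mouse share was 6.67% in the median, and 141 of 148 barcodes (95.3%) had 20% or less. These barcodes held rat fibre genes beside mouse genes of other cell types, which are described below. Of the 77 barcodes between the ranges, 28 showed the opposite order, with a median of 61.6% of fibre gene UMIs on mouse copies and 21.4% of the other genes, at 11572.5 UMIs.

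The doublet caller Scrublet marked 52 of 642 members (8.10%, 6.11 to 10.5) and 101 of 1122 rat fibre barcodes (9.0%, 7.39 to 10.8). The marks were uneven among the members. They fell on 6 of 417 barcodes of the matched range (1.44%, 0.530 to 3.11), 28 of 148 of the apart range (18.9%, 13.0 to 26.2) and 18 of the 77 between (23.4%, 14.5 to 34.4), 11 of them among the 28 barcodes of opposite order. The caller compares barcodes with sums of barcode pairs and does not see doublets of like cells. Rat and mouse rows entered it as separate genes. How reliably it marks a rat fibre and a mouse fibre in 1 droplet was not tested.

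The fibre genes were then taken one by one, in the order of their roles. Acta1 encodes skeletal alpha-actin of the thin filament. In the mixed fibre barcodes its rat copy (ENSRNOG00000017786) had 151923 UMIs and its mouse copy (ENSMUSG00000031972) 59998, a mouse share of 28.3% (28.1 to 28.5). All 642 barcodes had a rat UMI of Acta1 and 582 also had a mouse UMI. The share was 31.9% in the matched range, 3.26% in the apart range, 2.33% in rat fibre barcodes and 11.7% in other mouse barcodes. The ranges were drawn on the summed share of Acta1 and the other 9 fibre genes, so their order on each of these genes is a description and follows largely from the choice.

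The troponin complex switches the thin filament on when calcium rises, and its fast subunits are Tnnt3, Tnni2 and Tnnc2. Their mouse shares in the mixed fibre barcodes were 34.5%, 29.9% and 32.5%, in that order. They were 38.6%, 33.7% and 36.8% over the matched range, and in the apart range 7.95%, 2.84% and 3.25%. Tnnt3 was the rule gene with the highest mouse share in rat fibre barcodes, at 6.69%. The interval of that value (6.60 to 6.79) lay below that of the apart range (7.49 to 8.42).

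The fast myosin light chains Mylpf and Myl1, which bind the neck of the myosin head, had the largest mouse shares of the 10 genes. Mylpf had 105639 rat and 66702 mouse UMIs (38.7%, 38.5 to 38.9) and Myl1 had 59367 and 41501 (41.1%, 40.8 to 41.4). Both were higher still in the matched range, at 43.3% and 45.4%. Both also led the 10 genes in mouse fibre barcodes, at 78.5% and 80.1%. In other mouse barcodes Myl1 was highest at 19.7%, but Mylpf, at 15.3%, lay below Eno3 and Tnni2, and in rat fibre barcodes Tnnt3 was highest.

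Tcap, the titin cap of the Z-disc, was the shallowest of the 10 genes, with 2565 rat and 1114 mouse UMIs (30.3%, 28.8 to 31.8). The muscle creatine kinase Ckm, which rebuilds ATP from phosphocreatine, had 29.0% (28.7 to 29.3) on its mouse copy. The glycolytic enzymes Pgam2, a phosphoglycerate mutase, and Eno3, an enolase, had 24.96% (24.2 to 25.7) and 31.3% (30.5 to 32.0). Pgam2 was lowest of the 10 genes in the mixed, matched and rat fibre barcodes and in the other mouse barcodes. The 10 genes spanned 28.5% to 45.4% in the matched range, and each lay above its own value in other mouse barcodes, which spanned 9.25% to 19.7%. That difference also follows largely from the choice, since the rule and the ranges used these genes.

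**Figure D3:**
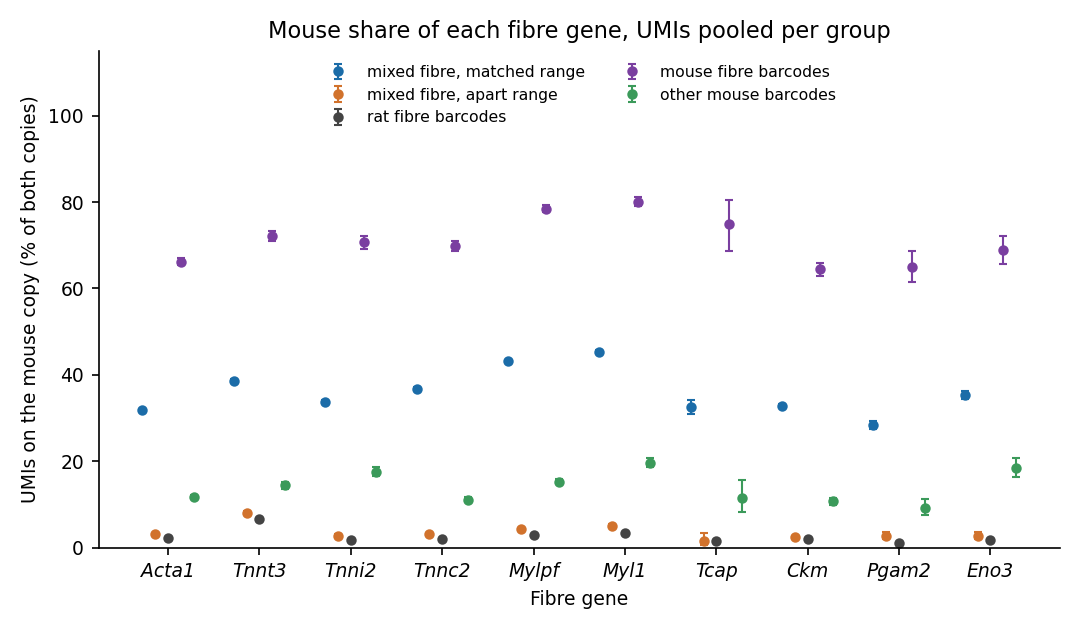
Share of UMIs on the mouse copy (vertical axis, percent of both copies) for each of the 10 fibre genes (horizontal axis), UMIs pooled over the barcodes of 5 groups, with exact 95% binomial intervals as bars. In the matched range every gene lies between 28.5% and 45.4%, above the other mouse barcodes, while the apart range lies beside the rat fibre barcodes below 8%. The rule and the ranges used these genes, so this order follows largely from the choice.

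The mouse shares of single fibre genes were also compared within each barcode. The 5 deepest rule genes, Acta1, Mylpf, Tnnc2, Myl1 and Tnnt3, each had at least 20 UMIs in 478 members. Across these barcodes the Acta1 share followed that of Mylpf with a Pearson correlation of 0.97, given as a description because both genes share the barcode and its depth. The SD among the 5 shares of a barcode was 5.78 points in the median, where counting alone would give 2.88. In the 371 such barcodes of the matched range, the values were 6.13 and 3.22 points. The highest and lowest of the 5 shares lay 14.0 points apart in the median over the 478 members and 15.1 points apart in the matched range. The genes of 1 barcode therefore differed by more than counting error, with the order of genes given above.

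The other muscle genes were not part of the 5% level, although their UMIs entered the species share. Of the 85 genes of the muscle lists that are not rule genes, 68 had a single copy in each species and at least 20 UMIs in the matched range. Of these, 57 had more than 20% of their UMIs on the mouse copy (median over genes 37.2%), against 4 of 75 in rat fibre barcodes (median 2.84%). The mouse share exceeded the gene's own rat fibre value in 67 of 68 genes, Dmd being the exception. So it did in 22 of 22 genes of the other cell type lists, of which 8 had more than 20% mouse. Members were chosen on a mouse share above 20% and rat fibre barcodes on a lower one, so these counts follow largely from the choice. As a description, mouse shares above 20% extended over most of these muscle genes.

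In the thin filament and nebulin list, the matched range had 38.1% of UMIs on mouse copies (37.8 to 38.5), against 2.3% in rat fibre barcodes. The tropomyosins Tpm1 and Tpm2, which lie along actin, had mouse shares of 37.3% and 41.0% there. The nebulin gene Neb, the ruler of the thin filament, had 427 rat and 212 mouse UMIs, and Tmod4, which caps the filament's pointed end, 905 and 379. All 6 genes of the list had mouse shares between 29.5% and 52.2% in the matched range. In the apart range the list had 3.8% (3.5 to 4.2).

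Thick filament and M-band genes had a mouse share of 38.3% (36.9 to 39.6) in the matched range and 2.5% in rat fibre barcodes. Myh4, the heavy chain of fast 2B fibres, had 2207 rat and 1098 mouse UMIs in the matched range (33.2%). The myosin-binding protein Mybpc2 of fast fibres had 344 and 663, and Mybpc1 of slow fibres 456 and 136. Mybpc2 was counted on its mouse copy in 10.7% of rat fibre UMIs, more than the 1.4% of Myh4, so shares of the list's genes do not have the same base. Myh1 was found only on a mouse row, with 139 UMIs in the members, and its rat row was not analysed here.

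In the titin and Z-disc list the matched range had 43.2% (42.5 to 43.8), with a median over its 14 genes of 35.9%. Titin itself, Ttn, had 758 rat and 301 mouse UMIs (28.4%), the alpha-actinin Actn3, which crosslinks actin in fast fibres, 2317 and 2032 (46.7%), and Myoz1, a calcineurin-binding Z-disc protein, 4036 and 2527 (38.5%). Desmin, Des, the intermediate filament of muscle, had 73.9% there but also 60.2% in rat fibre barcodes. Its mouse copy does not separate the species, and it raised the list's pooled share.

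Calcium handling genes had a mouse share of 35.3% (33.8 to 36.9) in the matched range over their 10 paired genes and 3.8% in rat fibre barcodes. Triadin, Trdn, which links the release channel to calsequestrin, had 941 rat and 502 mouse UMIs, and Casq1, the calsequestrin of fast fibres, 374 and 239. The calcium channel subunits Cacng1 and Cacna1s had mouse shares of 21.6% and 43.3%. Parvalbumin, Pvalb, and the pump Atp2a1 were counted only on mouse rows, where they had 9397 and 1453 UMIs in the members and 2764 and 404 in rat fibre barcodes, and no rat row of either was analysed here.

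Energy genes followed the sarcomere genes. Glycolysis and glycogen genes had 41.1% (40.6 to 41.7) on mouse copies in the matched range and 2.4% in rat fibre barcodes. Gapdh had 11544 rat and 8423 mouse UMIs there (42.2%), the lactate dehydrogenase Ldha 1920 and 1495 (43.8%), and the glycogen phosphorylase Pygm 1449 and 635 (30.5%). Nuclear genes for oxygen and mitochondrial energy had 38.6% (38.0 to 39.3) in the matched range and 2.6% in rat fibre barcodes. Slc25a4, the ATP and ADP carrier of the inner membrane, had 5971 and 3558 (37.3%), and Cox6a2, a muscle subunit of cytochrome oxidase, 4228 and 2568 (37.8%). Myoglobin, Mb, which stores oxygen, was lower at 2591 and 488 (15.8%). Cox7a1 had 98.4% on its mouse copy, but 69.97% in rat fibre barcodes too.

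Slow fibre genes were rare among the members. Several rule genes are those of fast fibres, and the part of that choice was not tested. The rat copies of 6 slow genes (Tnnt1, Tnni1, Tnnc1, Myl2, Myl3, Myh7) made up 0.84% of slow and fast UMIs in the mixed fibre barcodes and the mouse copies 0.34%, with the fast genes Tnnt3, Tnni2, Tnnc2, Mylpf, Myl1 and Myh4 as the rest. Rat fibre barcodes had 0.80% on rat copies. In the members the regulatory light chain Myl2 of slow fibres had 930 rat and 130 mouse UMIs, yet a mouse UMI in 5 barcodes, and the slow troponin Tnnt1 had 695 and 193 in 15 and 11 barcodes.

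Fibre type could be read from the rat and from the mouse copies of the same barcode. Of the mixed fibre barcodes, 341 had at least 100 slow and fast UMIs in each species. With 10% or more on slow genes taken as slow, 338 were fast by both species' copies, 3 were slow by both and 0 were slow by 1 species only, which allows a share of up to 0.880%. In rat fibre barcodes, 145 had enough UMIs in each species, of which 143 were fast by both, 0 slow by both, 1 slow by the rat copies only and 1 by the mouse copies only. By the rat copies alone, 4 of 431 members and 21 of 1088 rat fibre barcodes were slow. The remaining member slow by its rat copies had fewer than 100 slow and fast UMIs on mouse copies and could not be read in both. The 3 members slow by both had 4542, 6252 and 13976 UMIs, and their rat copies were 80.5%, 93.4% and 92.1% slow. Their mouse copies were 55.6%, 61.5% and 63.8% slow. In all 3 the slow share was lower in the mouse copies, and free RNA of fast genes, which are the more abundant, was not tested as a part of that difference.

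**Figure D4:**
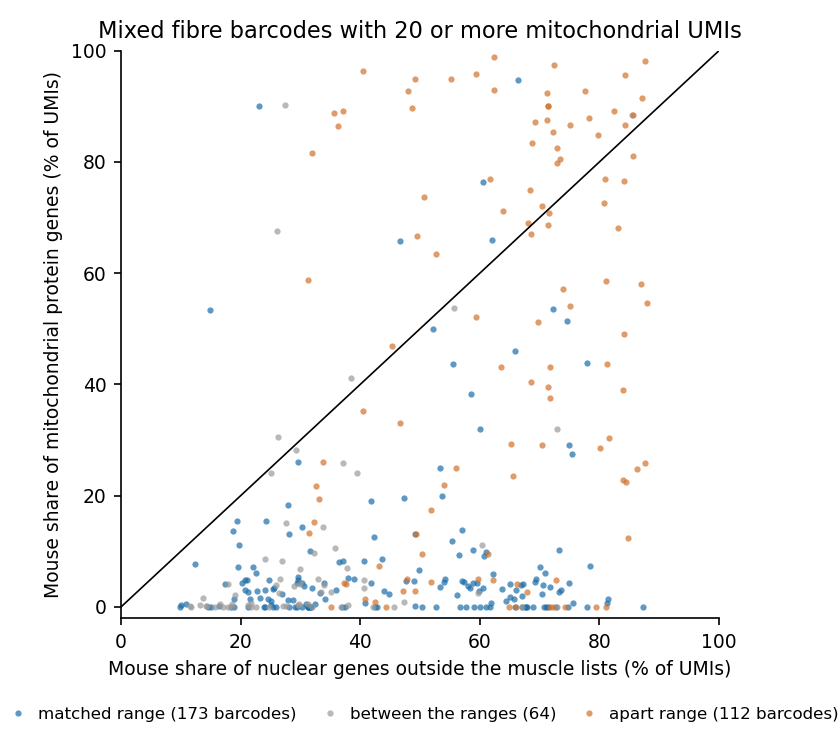
Mouse share of mitochondrial protein genes (vertical axis, percent of UMIs) against the mouse share of nuclear genes outside the muscle lists (horizontal axis, percent of UMIs), 1 point per mixed fibre barcode with at least 20 mitochondrial UMIs, with a line of equality. Most of the 173 barcodes of the matched range lie near 0 at every nuclear share (median 3.33%), while the 112 of the apart range spread over the whole axis.

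Genes of the mitochondrial genome did not share the mouse level of the nuclear genes. In the matched range, 2407 of 25511 UMIs of the 13 mitochondrial protein genes were mouse (9.44%, 9.08 to 9.80), against 38.6% for the nuclear genes of mitochondrial energy. The 173 barcodes with at least 20 mitochondrial UMIs had a median of 3.33% (2.56 to 4.35). Other mouse barcodes had 83.8% pooled and 89.2% in the median. In rat fibre barcodes the pooled share was 0.99%.

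This held from gene to gene and at every nuclear share. Over the 12 mitochondrial protein genes with a row of the same name in each species, the mouse share in the matched range ran from 6.03% for mt-nd4 to 19.1% for mt-nd5, and in other mouse barcodes from 79.2% for mt-co1 to 91.0% for mt-nd5. Members were also chosen on the mouse share without mitochondrial genes and without Rn18s-rs5, the mouse gene for 18S ribosomal RNA, which left mitochondrial genes out of the rule. Of 149 such barcodes of the matched range with at least 20 mitochondrial UMIs, 133 had under 20% on mouse mitochondrial genes. Where the nuclear share was 20% to 35%, the median was 1.52% in 49 barcodes, and where it was above 65%, the median was 3.13% in 38 barcodes. The pooled shares were 2.27% (1.96 to 2.62) and 21.1% (19.8 to 22.5), above the medians. Over the whole matched range, the 8 barcodes richest in mouse mitochondrial UMIs held 1553 of the 2407 (64.5%).

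Mitochondrial UMIs were few in fibre barcodes, at a median of 0.57% of UMIs in the matched range and 0.52% in rat fibre barcodes, against 5.54% in other rat barcodes. At so low a level the part of free RNA was not tested. The fibro-adipogenic genes, which fibres do not express, had a mouse share of 13.1% (11.8 to 14.5) in the matched range and 10.7% in rat fibre barcodes. The mitochondrial genes had 9.44% (9.08 to 9.80) and 0.99%, so both shares do not have the same base. In mouse fibre barcodes the median mitochondrial mouse share was 76.4% in 25 barcodes, with an interval from 4.17% to 91.7%. When these were chosen without mitochondrial genes it was 24.9% in 29 barcodes (1.45 to 90.5), so their level is not fixed by these data. In the apart range, 18812 of 32154 mitochondrial UMIs were mouse (58.5%), and the median over 112 barcodes was 51.7% (35.2 to 68.2).

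The dystrophin complex ties the sarcomere's edge to the membrane, and dystrophin, Dmd, is the gene edited in the iPSCs. In the members Dmd had 44 rat and 27 mouse UMIs, and in the matched range 32 and 6 (15.8%). In rat fibre barcodes its mouse share was 19.9%, with 125 rat and 31 mouse UMIs. A mouse level of Dmd above this base was therefore not detectable in the matched range at this depth. Sgca, the alpha-sarcoglycan found in striated muscle, had 46 rat and 31 mouse UMIs there (40.3%), against 2.9% in rat fibre barcodes. Over the whole list the mouse share was 31.6% (26.5 to 37.0) in the matched range and 51.5% (42.7 to 60.2) in the apart range. Dag1, the dystroglycan gene that many cell types use, had 41 and 3 in the matched range and 9 and 27 in the apart range.

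Genes of the neuromuscular junction were near the detection floor. The 7 genes of the list had 60 rat and 46 mouse UMIs in the members and 20 and 5 in the matched range and 8 and 22 (73.3%) in the apart range, and 3 of the 7 had no mouse UMI in the matched range. The receptor subunits Chrne and Chrnb1 led the list, with 22 rat and 5 mouse and 17 rat and 15 mouse UMIs in all members. No species share could be read for a gene of this list in the matched range, where none reached 20 UMIs.

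Among the myogenic factors, Myf6, the factor kept by mature fibres, had 153 rat and 83 mouse UMIs in the members, and in the matched range 108 and 75 (41.0%) against 1.7% in rat fibre barcodes. Mef2c, which drives muscle genes but is also used by endothelial and immune cells, had 302 and 379 in the matched range (55.7%) and 24.1% in rat fibre barcodes. Myog, the factor of differentiating myoblasts, had 19 and 30 in the members, with 50.3% in rat fibre barcodes, so that its copies do not separate the species. The fusion genes Mymk and Mymx had 4 and 3 UMIs in the members over both species. Myod1 had 22 and 11.

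Satellite cell markers other than Des were sparse. Pax7, which defines satellite cells, had 3 rat UMIs in 2 members and 11 mouse UMIs in 5. Myf5 had 4 rat and 0 mouse UMIs, Chodl 12 and 6, and Calcr 0 of both. EGFP had 1 UMI in 1 member, of 9 in the whole library, which is under the 3 counts that a count of 0 allows. The whole satellite list had 1298 rat and 3434 mouse UMIs in the members, of which Des, which fibres make as well, had 1257 and 3406.

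Markers of other cell types differed between both ranges of members. These markers were among the genes outside the muscle lists on which the ranges were drawn. Their higher mouse share in the apart range therefore follows largely from the choice and is given as a description. Endothelial genes, of the cells that line vessels, had 5382 mouse UMIs per 1e6 nuclear mouse UMIs in the members (5254 to 5513), 415 (370 to 465) in the matched range and 15538 (15136 to 15949) in the apart range. Other mouse barcodes had 13015. Fabp4, the fatty acid carrier of capillary endothelium, had 568 rat and 4532 mouse UMIs in the members, 245 and 188 in the matched range and 164 and 3834 in the apart range. Flt1, a receptor for VEGF, had 155 and 396 in the members, Cdh5, the cadherin of endothelial junctions, 57 and 414, and Cldn5, counted on a mouse row alone, 341. All 10 endothelial genes were detected on mouse rows in each range. In the apart range the level per 1e6 was above that of other mouse barcodes, which hold all mouse cell types.

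Fibro-adipogenic genes, of the connective tissue cells between fibres, showed the same division. They had 15726 rat and 6194 mouse UMIs in the members (28.3% mouse, 27.7 to 28.9), of which 2241 and 338 lay in the matched range and 2669 and 4438 in the apart range, where 1 barcode held 1190 of the 4438. The proteoglycan Dcn had 492 rat and 10 mouse UMIs in the matched range (2.0%) and 315 and 874 in the apart range (73.5%). The collagens Col1a1 and Col3a1 had mouse shares of 18.9% and 12.5% in the matched range. In the matched range fibro-adipogenic UMIs thus lay mostly on rat copies, beside fibre RNA of both species and endothelial genes at 40.4% mouse. The fibro-adipogenic list had 13.1% on mouse copies there and 10.7% in rat fibre barcodes. On rat copies the list stood at 1288 UMIs per 1e6 (1235 to 1343), below the 8854 (8789 to 8919) of rat fibre barcodes.

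Tenocyte genes had 9.3% (6.1 to 13.3) on mouse copies in the matched range and 81.9% (76.9 to 86.3) in the apart range, where Thbs4 had 19 rat and 93 mouse UMIs and Fmod 16 and 81. A single barcode held up to 210 of the 227 mouse UMIs of the list in the apart range. Myeloid genes had 99 rat and 8 mouse UMIs in the matched range, where 5 of the 8 genes had no mouse UMI. In the apart range they had 126 and 194, of which 1 barcode held 130 mouse UMIs. The barcodes between the ranges had 1433 and 1, with 1096 of the rat UMIs in 1 barcode. Lyz2, the lysozyme of macrophages, had 37 and 5 in the matched range. Mural genes, of pericytes and vascular smooth muscle, stayed mostly rat in both ranges, at 10.4% (6.6 to 15.5) and 10.1% (5.1 to 17.3).

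Lymphoid and glial genes were sparse. Lymphoid genes had 116 rat and 154 mouse UMIs in the members, with 11 and 10 in the matched range, and Cd79a of B cells had 48 mouse UMIs in 6 members. Glial genes had 77 and 20, led by S100b with 31 and 6. The immediate early genes, which cells switch on within minutes of dissociation, had 28.5% (26.0 to 31.1) on mouse copies in the matched range, with Fos at 241 rat and 214 mouse UMIs. Fos had 35.5% on its mouse copy in rat fibre barcodes as well. Of 56 genes of the other cell type lists, 22 had at least 20 UMIs in the matched range, with a median mouse share of 13.4%, below the 37.2% of the muscle genes outside the rule. Of the 22 genes, 8 lay above 20%. Endothelial genes had 40.4% (36.7 to 44.2) on mouse copies there, as high as the muscle lists, and 25.8% in rat fibre barcodes.

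**Figure D5:**
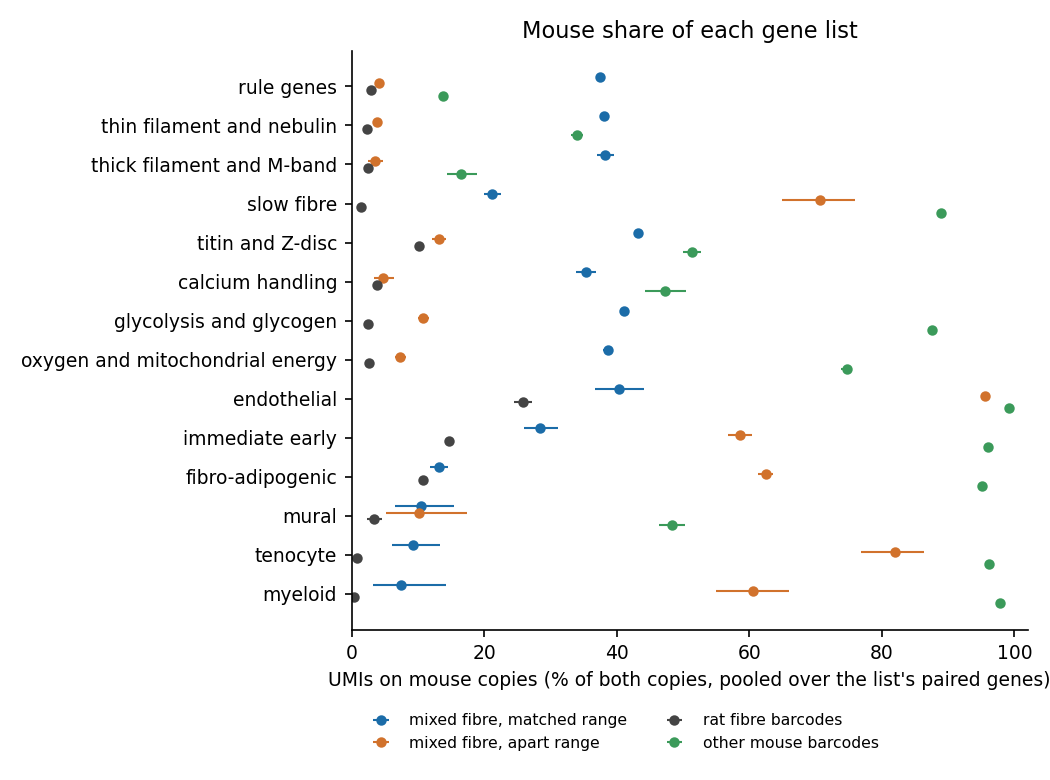
Share of UMIs on mouse copies (horizontal axis, percent of both copies, pooled over each list's genes with 1 row per species) for 14 gene lists (vertical axis) in 4 groups of barcodes, with exact 95% binomial intervals as bars. In the matched range most muscle lists lie between 35.3% and 43.2%, endothelial genes at 40.4% and fibro-adipogenic, mural, tenocyte and myeloid genes at 13.1% or less. In the apart range the muscle lists drawn here, other than the slow fibre genes, lie at 13.1% or less and endothelial genes at 95.6%.

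The plot of mouse share by list shows the slow fibre list at 70.7% in the apart range. That value came from Tpm3, with 32 rat and 171 mouse UMIs there, a tropomyosin that is also made in cells other than fibres, and from Atp2a2. Myl2 and Tnnt1 of the same list had 2 and 6 UMIs in the apart range. In the other mouse barcodes Tpm3 had 6393 mouse UMIs.

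The mixed fibre barcodes were finally compared with fibre barcodes of 1 species over all genes. UMIs were summed per group and expressed per 1e6 UMIs of the compared rows, and 10 per 1e6 were added to both before the log2 ratio, which understates the change of low genes. Genes with at least 50 UMIs over both groups entered, and at least 2-fold was the limit for a count. On rat rows, few genes passed this limit when all mixed barcodes were pooled and set against rat fibre barcodes. Of 7907 genes, 11 were at least 2-fold higher (0.139%) and 36 at least 2-fold lower (0.455%), with a median log2 ratio of -0.04. The pool holds unlike ranges, and the matched range alone, given below, had more rows past the limit. None of the 10 rule genes passed, and their median was 0.11. Of 163 list genes, Flt1 was higher on rat rows, and Tnmd of tenocytes and Ptprc of leukocytes were lower.

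The highest rat rows rested on few barcodes. Spp1, a matrix protein secreted by macrophages, had a log2 ratio of 1.80, with 148 of its 166 UMIs in 1 of 5 barcodes, and the chemokine gene Ccl12 had 1.70, with 49 of 50 UMIs in 1. The macrophage enzyme Arg1 (1.36) and the histone gene Hist1h2an (1.22) were alike, with 28 of 40 and 23 of 41 UMIs in 1 barcode. Stmn1, a tubulin-binding protein of dividing cells, had 1.16 over 34 barcodes. The lowest rows were immune genes: S100a9 at -2.68, the MHC class II genes RT1-Db1, Cd74 and RT1-Da at -2.54, -2.35 and -2.33, and the chemokine Ccl21 at -2.26. RT1-Db1 had 116 UMIs per 1e6 on rat rows in mixed and 724 in rat fibre barcodes.

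Of the matched range alone, 4 of 7555 rat rows were at least 2-fold higher than in rat fibre barcodes and 686 lower, with a median log2 ratio of -0.29. Lower rat rows were thus more numerous there than over all members, beside the lower level of fibro-adipogenic and myeloid genes given above.

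On mouse rows, the mixed barcodes were set against the 47 mouse fibre barcodes. Of 3067 rows, 187 were at least 2-fold higher (6.10%) and 184 at least 2-fold lower (6.0%), with a median log2 ratio of 0.05. Of the rule genes, 0 of 10 were past the limit, with a median of 0.26. Both groups had passed the 5% level on these genes, so this is given as a description. It also pools unlike ranges. Mouse copies of the rule genes had 336367 UMIs per 1e6 nuclear mouse UMIs in the matched range and 13147 in the apart range. Mouse fibre barcodes had 185410. The highest rows were the globin genes Hba-a2 at 6.25, Hba-a1 at 5.77, Hbb-bs at 5.63 and Hbb-bt at 5.16, where 1 barcode held 2326 of the 3115 UMIs of Hbb-bs, and the neutrophil gene S100a8 at 4.64, with all 295 UMIs in 1 barcode. Hba-a2 and S100a8 had 0 UMIs in the mouse fibre barcodes, so their fitted ratios depend on the 10 per 1e6 added. The lowest were Ccl5 of T cells at -5.98, Lgals3 of macrophages at -4.64, the protease inhibitor Tfpi2 at -4.06, the complement gene C3 at -3.88 and H2-Eb1 of MHC class II at -3.68.

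Among the lists on mouse rows, 5 of 7 slow fibre genes with enough UMIs were at least 2-fold higher in mixed barcodes (Myoz2, Myl2, Tnnc1, Myl3 and Tnnt1; median log2 ratio 2.93), against 6.10% of all rows tested. So were Mb, Fabp3 and Ckmt2 of the 9 oxygen and mitochondrial energy genes, Lmod3 and Neb of the thin filament, Cryab of the Z-disc list, the fibro-adipogenic Pi16, Mfap5 and Col1a1, Fmod of tenocytes and the immediate early gene Egr1. Myl2 had 1 UMI in the mouse fibre barcodes and 130 in the mixed ones, and 1 member held 424 of the 1128 mouse UMIs of the slow list. Of 3 myeloid genes, 3 were lower (Lyz2, Fcer1g and Tyrobp), and so were Lum, Thbs4 and Ptprc. The endothelial list had 0 of 10 past the limit. The mouse fibre barcodes were themselves mixed in kind: 13 of 47 had a fibre gene mouse share of 20% or less, 11 lay between the limits and 23 had 80% or more, so the reference also holds barcodes with rat fibre genes and mouse genes of other cells.

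With rat and mouse rows of a symbol added, 482 of 9061 genes were at least 2-fold higher in mixed than in rat fibre barcodes (5.32%) and 56 lower (0.618%), with a median log2 ratio of 0.03. All 10 endothelial genes were higher in this pool of unlike ranges, with a median of 1.81, against 0.03 over all genes. Their sums in the members lay mainly on mouse rows, with 6634 mouse and 963 rat UMIs, and so depend on the species share that chose the members. Of the 6634, the apart range held 5646, the barcodes between the ranges 689 and the matched range 299. The rise of the pool is therefore not given as a trait of the matched range. C1qb and C1qc of macrophages were lower. The rule genes, on whose 5% level both groups were chosen, had a median of -0.05. The highest sums were Hbb-bs and Hba-a1, both at 5.08, the metallothionein Mt1 at 4.39, Hbb-bt at 4.16 and the ribosomal protein gene Rpl27a at 3.99. Hba-a1, Hbb-bt and Rpl27a had a mouse row alone, and a symbol with a row in 1 species follows the species share that chose the members. The same holds for Myh1, Atp2a1, Pvalb, Pgk1 and Cox8b, the muscle genes past the limit beside Aldoa and Cox7a1. The sums of Aldoa and Cox7a1 also lay mainly on mouse rows and follow that share too. Aldoa had 13660 mouse UMIs in the members, and Cox7a1 had 98.4% on its mouse copy in the matched range. The lowest sums were the rat MHC class II genes RT1-Db1 at -3.15, RT1-Da at -2.96, RT1-Ba at -2.73 and RT1-Bb at -2.61, and Ccl21 at -2.52, each with a rat row alone.

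The mouse rows with most UMIs in the members were Rn18s-rs5 with 133735 UMIs (9.51% of their mouse UMIs), Mylpf, Acta1, Myl1 with 41501 (2.95%) and Tnnc2 with 33315 (2.37%). Rn18s-rs5 also took 329296 UMIs in rat fibre barcodes, so it is no sign of mouse RNA. In the matched range 8 nuclear mouse rows were highest, and all were sarcomere or creatine kinase genes, from Mylpf at 79586 UMIs per 1e6 nuclear mouse UMIs to Tnni2 at 20484. In the apart range the highest were Tmsb4x at 13422 and Fabp4 at 10552, the same 2 that led the other mouse barcodes at 16778 and 9186. Fibre genes thus led the mouse rows of the matched range, and genes that also led mouse barcodes outside the fibres led those of the apart range.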

How the data were processed

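Single-cell 3' libraries of chimera and SD rat muscle were deposited as raw UMI counts for each barcode. According to the labels, Cell Ranger 7.1.0 produced these counts against mRatBN7.2 and GRCm39. Nothing was normalized before deposit. The filters and the rule are given with the results. Rat and mouse rows of a symbol were paired by symbol, and symbols with more than 1 row in a species, or a row in 1 species only, got no species share. Doublets were marked with Scrublet (scanpy 1.11.5, expected 8%), which marked 444 of 12174 chimera barcodes (3.65%), and were kept. Shares carry exact Clopper-Pearson 95% intervals, levels exact Poisson intervals and medians order-statistic intervals. With 1 library per group no test was run, and the interval functions and the fold calculation were tested on simulated data. The members and the 20 gene lists were chosen with earlier results of these data known, and the matched and apart ranges after the data were seen. Genes named in the comparisons over all genes were the 5 highest and 5 lowest log2 ratios, each with at least 50 UMIs over both groups, besides the listed genes. Alternative limits, filters and denominators were computed. The result of 1 listed gene is not reported here.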

Additional observations from a re-analysis of the deposited data

How the results depend on the processing

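With 1 library per group no difference has a replicate check, and intervals cover counting error only. No paired analysis was possible because each group is 1 library and the labels carry no replicate numbers. Fibre barcodes had a larger mixed share than other barcodes under each alternative, although the gap nearly closed with species limits of 10% and 90%. For each alternative, the values that moved beyond counting error, or by more than 1.5 times for a count of genes, are given, and the causes were not tested. Limits of 10% and 90% gave a mixed share of 63.1% of fibre and 63.0% of other barcodes, a median fibre gene mouse share of 12.0%, 33.0% of members with mixed fibre gene UMIs, 151 rat rows and 1681 mouse rows at 2-fold, and 4771 endothelial UMIs per 1e6 mouse UMIs. Limits of 30% and 70% gave 20.0%, 5.00%, 37.2%, 69.7%, 166 rat rows and 198 mouse rows in that order. A fibre gene level of 10% gave 32.9%, 12.6%, 37.3%, 68.7%, 585 mouse rows and 3074 endothelial UMIs per 1e6. A level of 20% gave 32.3%, 13.1%, 41.0%, 74.6%, 220 mouse rows, 300 species-summed genes and 1078 endothelial UMIs per 1e6. A minimum of 1000 UMIs gave 29.9%, 10.5%, 33.1%, 65.4% and 4940 endothelial UMIs per 1e6. A mitochondrial limit of 10% gave 10.4% of other barcodes and 5132 endothelial UMIs per 1e6. A mouse share without Rn18s-rs5 and mitochondrial rows gave 31.7% of fibre and 6.58% of other barcodes, with 60.1% of members mixed in their fibre genes. A mouse share without the 10 rule genes gave 38.2% of fibre barcodes, a median of 20.7%, 48.6% of members mixed in their fibre genes, 112 rat rows, 655 mouse rows and 4230 endothelial UMIs per 1e6. Without marked doublets, other barcodes were 10.6% mixed, 164 rat rows passed and endothelial UMIs were 4775 per 1e6. Adding 1 per 1e6 gave 283 rat rows and 1144 species-summed genes, and a minimum of 200 UMIs per gene gave 30 rat rows, 85 mouse rows and 299 species-summed genes. Totals over all rows gave 4717 endothelial UMIs per 1e6. Thinning each barcode to 20 fibre gene UMIs gave 45.95% of members mixed in their fibre genes. Alternatives chosen after the data had been seen were the matched range alone, with a median of 39.6%, 690 rat rows, 1162 species-summed genes and 415 endothelial UMIs per 1e6, and mouse fibre barcodes with 20% or more of fibre gene UMIs on mouse rows, with 830 mouse rows.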
